A study of Saccharomyces cerevisiae with 12 samples.

Results

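The ribosome biogenesis factors examined here were 71 yeast genes, chosen by name from the 7130 genes listed: every UTP, NOP and RRP gene with a number, the single-digit NOC, NSA, RPF, TSR, ENP and ESF genes, the RLP genes, and ARX1 and BUD20. All 71 had a level above 0 and a successful estimate in all 4 conditions. The name prefixes gave 26 factors of the small (40S) ribosomal subunit (18 UTP genes and 8 ENP, ESF and TSR genes), 8 factors of the large (60S) subunit (NSA, RPF and RLP genes, ARX1 and BUD20) and 37 NOP, RRP and NOC genes, which serve either subunit, both, or RNA processing in general.

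RNA was sequenced from tetO-GLN4 yeast with 1 µg/ml doxycycline, tetO-GLN4 yeast without it, wild-type BY4742 with 1 µg/ml doxycycline and BY4742 without it, as 3 cultures per condition and 12 samples in all. Both strains are labelled MATalpha with his3D1, leu2D0, lys2D0 and ura3D0. In tetO-GLN4 the promoter of GLN4, which encodes the glutaminyl-tRNA synthetase, was in addition exchanged for a KanMX4-marked tTA-tetO7 tet-off promoter, so that doxycycline shuts the gene off; it is a single strain, and its untreated state is also not driven by the native promoter. The wild type with doxycycline shows what the drug does without that promoter. Levels are in FPKM, sequenced fragments of a gene corrected for its length and for the depth of the libraries; each gene has 1 deposited value per condition, pooled over the 3 cultures, and a 95% confidence interval. Values per culture were not analysed here, and the sequencing depth is unknown. The RNA came from whole cultures, so a lower level in every cell and a lower level in some cells only cannot be told apart.

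As a check of the labels, GLN4 had 30.5 FPKM in tetO-GLN4 with doxycycline, and in untreated tetO-GLN4 it was listed at 0 with a failed estimate (too many fragments), so no ratio exists. It had 199.2 FPKM in the wild type with doxycycline and 199.3 FPKM in the untreated wild type. The mating type markers went against the label of the treated tetO-GLN4 cultures. The 4 alpha-specific genes (MF(ALPHA)1, MF(ALPHA)2, STE3 and SAG1) summed to 297 FPKM in tetO-GLN4 with doxycycline and 18668 FPKM in untreated tetO-GLN4, against 17035 FPKM in the wild type with doxycycline and 18332 FPKM in the untreated wild type, and 4 of the 4 had lower, separate intervals. The 7 a-specific genes summed to 281 FPKM in tetO-GLN4 with doxycycline, 158 FPKM in untreated tetO-GLN4, 169 FPKM in the wild type with doxycycline and 186 FPKM in the untreated wild type. Of 6 haploid-specific genes, 4 were lower in treated than in untreated tetO-GLN4. Everything below on treated tetO-GLN4 rests on these cultures, and the part of this change in the results was not tested.

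Yeast makes most of its ribosomal RNA in the nucleolus as 1 long precursor. Box C/D and box H/ACA small nucleolar ribonucleoproteins (snoRNPs) modify this precursor while assembly factors fold it and bind ribosomal proteins. The SSU processome, built from the UtpA, UtpB and UtpC modules, the U3 snoRNP and many single factors, makes the 40S precursor, while a chain of other particles makes the 60S precursor and brings it through the nuclear pore. The RNA exosome trims and degrades the pieces. These genes are known as the ribosome biogenesis regulon, which yeast expresses together during fast growth and lowers in starvation and stress, and many of their promoters carry the PAC and RRPE motifs.

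On the deposited scale the factors were lower as a group in tetO-GLN4 with doxycycline than without it, and they were nearly level in the wild type. Their log2 ratio of treated to untreated FPKM had a median of -0.43 in tetO-GLN4, with 58 genes below 0 and 13 above and a range of -1.33 (NOP7) to 0.59 (RRP43). Over all 6553 measured genes the median was 0.01, with 3248 below 0 and 3305 above. In the wild type the factors' median was 0.03, with 13 genes below 0 and 58 above and a range of -0.15 to 0.18. Over 6560 genes the wild-type median was -0.00, with 3399 below 0 and 3161 above. A gene was called changed where the 95% intervals of its 2 conditions did not overlap. In tetO-GLN4, 20 of the 71 factors (28.2%) fell and 0 rose, against 16.1% lower and 15.0% higher among all genes. In the wild type 0 of 71 were called, against 0.152% of all genes, and 0 factors had an unadjusted p under 0.05 in a z test made from the same intervals. At least a 2-fold lower level was seen for NOP7 and UTP20 alone (2 of 71), while 10.1% of all genes were that much lower. The plot of log2 ratios shows that the wild-type values lie close to 0 in each name class, with a standard deviation across genes of 0.05, against 0.40 in tetO-GLN4.

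**Figure D1:**
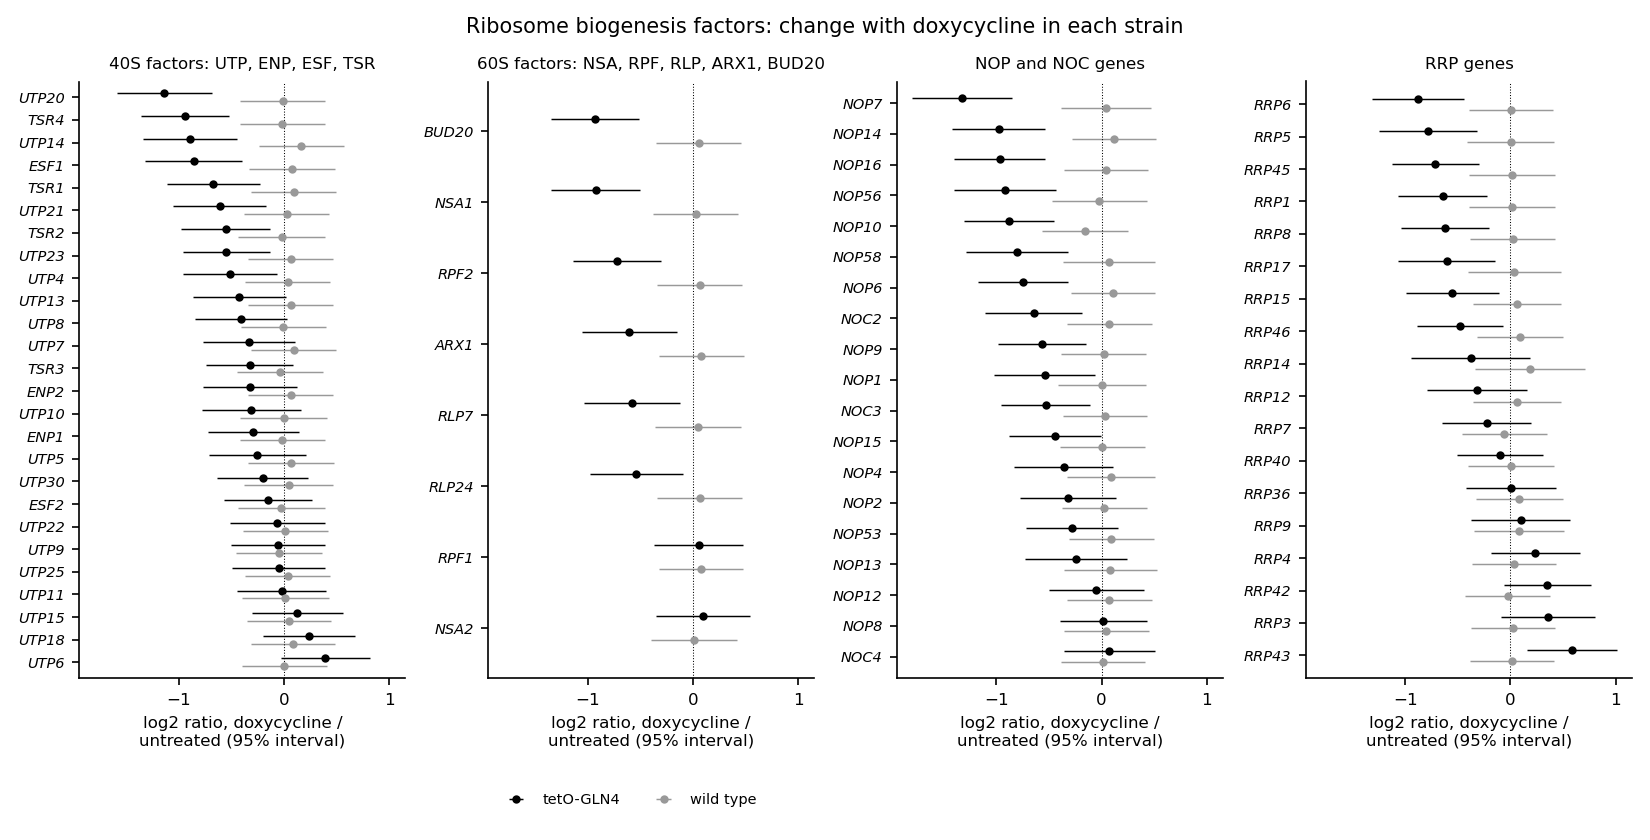
The log2 ratio of treated to untreated FPKM is plotted for the 71 factors, black for tetO-GLN4 and grey for the wild type; points are the ratios on the deposited scale, bars their 95% intervals, and genes are ordered from the lowest tetO-GLN4 ratio at the top. In tetO-GLN4 58 of 71 points lie left of 0 on this scale and after centring on the FPKM-weighted mean the median lies right of 0, while in the wild type the points lie between -0.15 and 0.18.

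The direction depends on what the level is measured against. Summed FPKM was 1.700e+06 in tetO-GLN4 with doxycycline and 2.621e+06 without it, and the 330 genes at 1000 FPKM or more in the untreated strain had a median log2 ratio of -1.06. Centring on the FPKM-weighted mean adds 0.67 to every log2 ratio in tetO-GLN4 and brings the median of all genes to 0.68; the factors' median is then 0.25, and 14 factors are called higher and 0 lower, beside 3006 of all genes higher and 280 lower. As a share of all summed FPKM they held 0.796% in tetO-GLN4 with doxycycline and 0.788% without it, and 0.936% in the wild type with doxycycline and 0.953% without it. The single gene NOP10 carries much of these sums: the other 70 factors held 0.545% in treated and 0.488% in untreated tetO-GLN4, and 0.617% in treated and 0.599% in untreated wild type. The 138 ribosomal protein genes held 24.6% in treated and 34.9% in untreated tetO-GLN4. All ratios and calls given from here on are on the deposited scale, on which the median of all genes lies at 0.01.

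The ratio also went with the level of a gene. Across the 71 factors the log2 untreated FPKM and the log2 ratio had a Pearson r of -0.38 and a Spearman rho of -0.38, and across all 6553 genes r was -0.45 and rho -0.44; the points share the untreated libraries, and genes are not independent replicates. Factors were therefore set beside genes of like level. At 50 to 100 FPKM the 20 factors had a median log2 ratio of -0.11, against -0.03 for all genes there, and 1 of the 20 fell, against 12.6% of all. Between 100 and 200 FPKM the 35 factors had a median of -0.33, against -0.17, and 9 fell, against 18.3% of all. From 200 to 500 FPKM 10 factors had a median of -0.70, against -0.35, and 6 fell, against 28.2% of all. From 500 to 1000 FPKM, where 4 factors lay and 2 fell, the medians were -0.67 and -0.59, and 40.2% of all genes fell. The gap between the median of all genes and that of the factors was thus 0.08, 0.17, 0.35 and 0.08 in these 4 classes, with few factors in the upper ones. Above 1000 FPKM the 1 factor, NOP10, was at -0.88, above the median of -1.06 of all genes there.

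**Figure D2:**
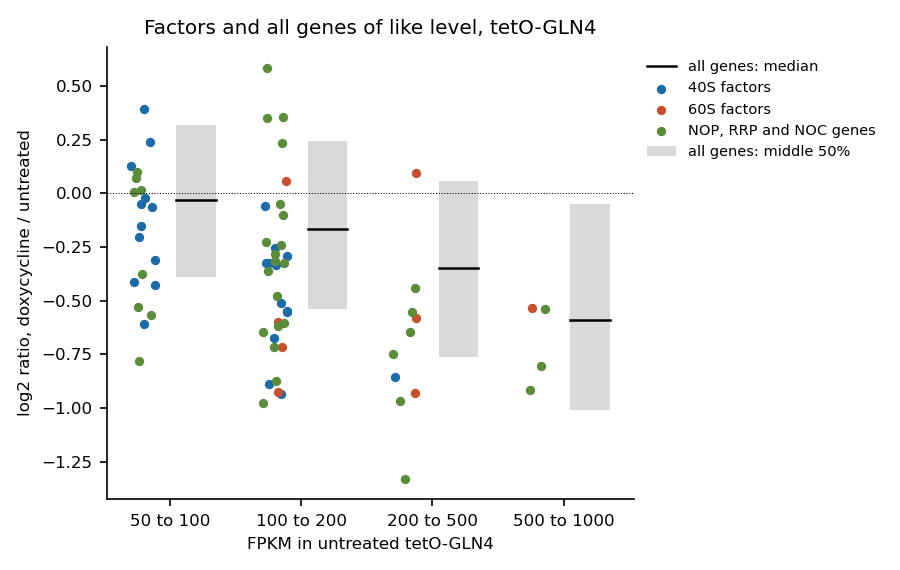
The log2 ratio (doxycycline to untreated, deposited scale, tetO-GLN4) is plotted by the untreated FPKM of the gene; each dot is a factor, and beside it a grey box spans the middle 50% of all genes in that class with their median as a black line. The median of the factors lies below that of all genes in each of the 4 classes, by 0.35 at 200 to 500 FPKM; centring on the FPKM-weighted mean would move both up by 0.67.

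The promoters of the factors with the lowest and the highest ratios are shown first for the PAC core, since its presence is what most of the factors share apart from their names. The 300 bases before each RefSeq start codon (assembly R64) were searched on both strands for the PAC core GATGAG, its longer form GCGATGAG and the RRPE core AAAAATTT; the longer form contains the core, and the window takes in the 5′ leader of the mRNA. Each line gives the 30 bases around the PAC core nearest the start codon, read in the direction of the gene, with every base of a PAC core (GATGAG, or CTCATC on the other strand) in capitals. The first 4 genes have the 4 lowest ratios of all factors, the next 4 have the highest ratios among factors with the motif, and NOC4 is shown for its repeat, after its values were seen.
NOP7, chrVII:695286-695315, plus strand: gcGATGAGATGAGATGAGaaaaaatgaaaa
UTP20, chrII:227452-227481, plus strand: aaaatttttaccGATGAGcattgaaaagtt
NOP14, chrIV:190661-190690, minus strand: tgataatttagaGATGAGcatttagcgaga
NOP16, chrV:156686-156715, plus strand: agaaaaataggcGATGAGataaatttataa
RRP43, chrIII:193060-193089, minus strand: gacaaattagacGATGAGtattgttacaca
UTP6, chrIV:1358990-1359019, minus strand: aaagatctgggcGATGAGctaaatatcagg
RRP3, chrVIII:229221-229250, minus strand: atatcgcGATGAGATGAGcttcttcgtcta
UTP18, chrX:312759-312788, minus strand: atttcacCTCATCTCATCgatcactctggt
NOC4, chrXVI:821473-821502, minus strand: ttGATGAGATGAGATGAGatgtaattatca

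Each of the genes with the lowest ratios had a PAC core. The genes shown from the upper end were chosen for having it, so its presence there follows from the choice. RRP42, at 0.35 above UTP18, has no PAC core and was left out for that reason. NOP7, with the lowest ratio, and NOC4, with a ratio of 0.07, both carry 3 overlapping copies of it. In all, 58 of 71 factors (81.7%) had a PAC core, against 19.1% of 5993 promoters of all genes, and 57 (80.3%) had an RRPE core, against 15.2%. Both motifs stood in 47 factors (66.2%), against 5.61% of all promoters, and the longer PAC form in 26 (36.6%), against 4.06%. The 96 PAC cores lay a median of 112 bases from the start codon, with 87 of them between 50 and 200 bases. Factors with the PAC core had a median log2 ratio of -0.43, and 17 of 58 fell; the 13 without it (ESF2, NOP53, NSA1, RRP6, RRP7, RRP42, RRP45, RRP46, TSR2, UTP4, UTP15, UTP22 and UTP30) had a median of -0.28, and 3 of them fell. Over all promoters 16.9% of genes with the PAC core and 17.1% of genes without it fell, and the medians were -0.06 and 0.02. For the longer PAC form the factors' medians went the other way, -0.32 with it and -0.53 without, and 7 of 26 and 13 of 45 fell. For the RRPE core the medians were -0.41 with it and -0.45 without, but 17 of 57 and 3 of 14 fell. With both cores the median was -0.44 and 15 of 47 fell, against -0.38 and 5 of 24 for the rest. Over all promoters, 23.5% of genes with the longer PAC form fell, against 16.8% without it. These shares were 24.4% and 15.8% for the RRPE core, and 25.9% and 16.6% for both cores. The plot of PAC distance shows no place at which the factors that fell gather apart from the others.

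**Figure D3:**
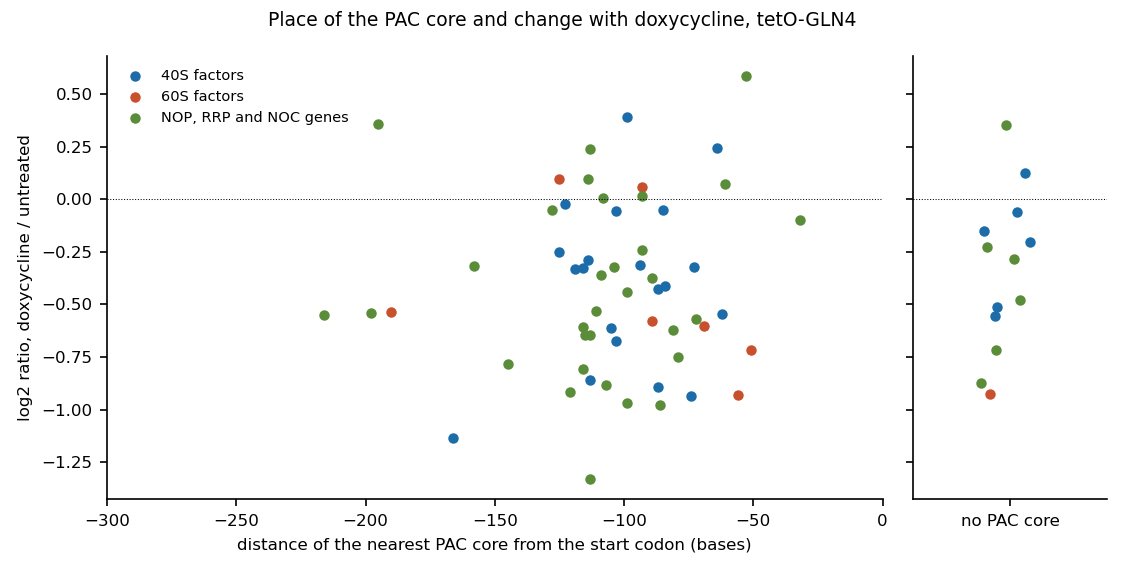
The log2 ratio (doxycycline to untreated, deposited scale, tetO-GLN4) is plotted against the distance in bases of the nearest PAC core from the start codon, with the 13 factors without a PAC core in the right panel; blue marks 40S factors, red 60S factors and green the NOP, RRP and NOC genes. Ratios below and above 0 occur at like distances, and the 58 genes with the motif reach from -1.33 to 0.59; the FPKM-weighted scale adds 0.67 to each.

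Among the 8 60S factors, BUD20, NSA1 and RPF2 fell, and NSA2 and RPF1 had ratios near 0. BUD20 (YLR074C, chrXII:281956-282456), a shuttling factor that takes part in the export of the 60S precursor, had 261 FPKM (95% interval 208 to 313) in tetO-GLN4 with doxycycline and 497 FPKM (392 to 601) without it, against 586 and 563 FPKM in the wild type with and without the drug. Its log2 ratio was -0.93 (-1.35 to -0.51) in tetO-GLN4 and 0.06 in the wild type, and the treated tetO-GLN4 interval lies below the other 3 values. NSA1 (YGL111W, chrVII:299978-301369), part of an early nucleolar 60S particle, had 69.8 FPKM in treated and 133 FPKM in untreated tetO-GLN4, and 139 and 136 FPKM in treated and untreated wild type, a log2 ratio of -0.92 (-1.35 to -0.50) in tetO-GLN4. RPF2 (YKR081C, chrXI:591506-592540), a Brix-domain protein that brings the 5S particle into the precursor, had 88.5 FPKM in treated and 145 FPKM in untreated tetO-GLN4, and 203 and 193 FPKM in treated and untreated wild type, with a log2 ratio of -0.72 (-1.13 to -0.30) in tetO-GLN4. For these 3 genes the 2 tetO-GLN4 intervals do not overlap, while the wild-type ratios stayed between 0.03 and 0.07.

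The intervals of the other 5 overlapped. ARX1, which binds the export-ready 60S precursor, had 115 FPKM in treated and 174 FPKM in untreated tetO-GLN4, and 215 and 203 FPKM in treated and untreated wild type, a log2 ratio of -0.60 (-1.06 to -0.15) in tetO-GLN4. RLP7, which resembles the ribosomal protein Rpl7, had 266 FPKM in treated and 398 FPKM in untreated tetO-GLN4, and 466 and 451 FPKM in treated and untreated wild type, at -0.58 (-1.04 to -0.12). RLP24, the placeholder of Rpl24, had 382 FPKM in treated and 554 FPKM in untreated tetO-GLN4, and 652 and 623 FPKM in treated and untreated wild type, at -0.54 (-0.98 to -0.09). In these 3 the treated tetO-GLN4 value is the lowest of the 4, and the interval of the log2 ratio lies below 0. RPF1, another Brix-domain factor, had 188 FPKM in treated and 180.3 FPKM in untreated tetO-GLN4, and 244 and 231 FPKM in treated and untreated wild type, at 0.06 (-0.37 to 0.48). NSA2 had 334 FPKM in treated and 313 FPKM in untreated tetO-GLN4, and 476 and 472 FPKM in treated and untreated wild type, at 0.09 (-0.35 to 0.54). RPF1 and RPF2 are therefore on either side of 0, as are NSA1 and NSA2, although each pair shares its name and subunit; these intervals were not compared with each other in a test.

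**Figure D4:**
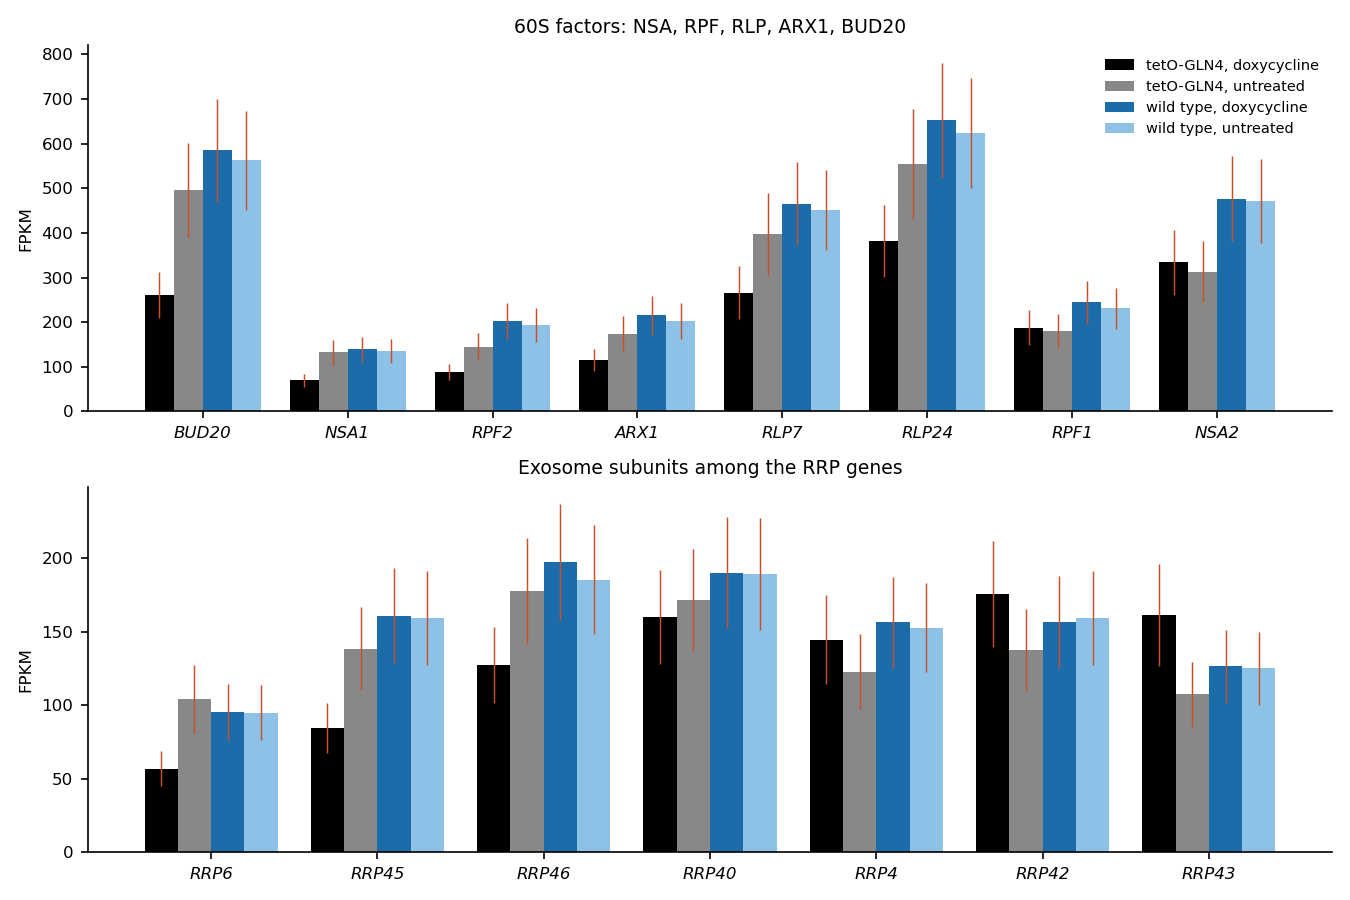
Bars give the deposited FPKM of the 8 60S factors (top) and of the 7 exosome genes among the RRP genes (bottom) in tetO-GLN4 with doxycycline (black), untreated tetO-GLN4 (grey), wild type with doxycycline (dark blue) and untreated wild type (light blue), with 95% confidence intervals. On this scale the black bar is below the grey one for 6 of the 8 60S factors and for 4 of the 7 exosome genes, and above it for RPF1, NSA2, RRP4, RRP42 and RRP43; on the FPKM-weighted scale each log2 ratio is higher by 0.67.

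Of the 26 40S factors, UTP20, TSR4, UTP14, ESF1 and TSR1 fell, 23 had a log2 ratio below 0 and 3 above, and the median was -0.32 with a range of -1.14 to 0.39. The UTP genes encode parts of the SSU processome. UTP20 (YBL004W, chrII:227636-235117), a very large repeat protein, had 18.3 FPKM (14.5 to 22.2) in treated and 40.3 FPKM (31.0 to 49.6) in untreated tetO-GLN4, and 35.3 and 35.6 FPKM in treated and untreated wild type, a log2 ratio of -1.14 (-1.59 to -0.69). UTP14 (YML093W, chrXIII:83090-85789), the activator of the helicase Dhr1, had 57.0 FPKM in treated and 106 FPKM in untreated tetO-GLN4, and 127 and 113 FPKM in treated and untreated wild type, at -0.89 (-1.34 to -0.44). UTP21, a UtpB subunit, had 55.7 FPKM in treated and 85.0 FPKM in untreated tetO-GLN4, at -0.61 (-1.05 to -0.17), and UTP23, a PIN-domain protein tied to the snoRNA snR30, had 117 FPKM in treated and 172 FPKM in untreated tetO-GLN4, at -0.55 (-0.96 to -0.13). Both had overlapping intervals, and in the wild type their log2 ratios were 0.03 and 0.06.

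At the other end UTP6 (YDR449C, chrIV:1357580-1358902), a UtpB subunit, had 96.7 FPKM (76.8 to 117) in treated and 73.7 FPKM (58.1 to 89.2) in untreated tetO-GLN4, a log2 ratio of 0.39 (-0.03 to 0.82), and 106 FPKM in the wild type both with and without doxycycline. UTP18, also of UtpB, had 91.6 FPKM in treated and 77.5 FPKM in untreated tetO-GLN4, and 114 and 107 FPKM in treated and untreated wild type, at 0.24 (-0.20 to 0.68). UTP15, of UtpA, had 107 FPKM in treated and 97.7 FPKM in untreated tetO-GLN4, at 0.13 (-0.31 to 0.56), and UTP11 had 81.0 FPKM in treated and 82.2 FPKM in untreated tetO-GLN4, at -0.02 (-0.44 to 0.40). In these 4 genes treated and untreated levels overlap. The other 10 UTP genes (UTP4, UTP5, UTP7, UTP8, UTP9, UTP10, UTP13, UTP22, UTP25 and UTP30) had log2 ratios of -0.51 to -0.05, none with separate intervals. By module, the 6 UtpA genes had a median of -0.28, the 4 UtpB genes -0.09, UTP22 and RRP7 of UtpC -0.14, and the 7 UTP genes outside these modules -0.33. Of the 12 genes of the 3 modules 0 fell and of the 7 others 2 fell, beside 16.1% of all genes, so these small counts set no module apart.

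The ENP, ESF and TSR genes act in the 90S particle, in late 40S maturation or as chaperones of single ribosomal proteins. They had a median of -0.44, 8 of 8 below 0, and 3 fell, beside 49.6% of all genes below 0 and 16.1% that fell. TSR4 (YOL022C, chrXV:280272-281498), a chaperone of the ribosomal protein Rps2, had 66.8 FPKM (53.4 to 80.2) in treated and 128 FPKM (101 to 155) in untreated tetO-GLN4, and 139.9 and 141 FPKM in treated and untreated wild type, a log2 ratio of -0.94 (-1.35 to -0.52). ESF1, needed for 18S rRNA processing, had 125 FPKM in treated and 227 FPKM in untreated tetO-GLN4, and 236 and 224 FPKM in treated and untreated wild type, at -0.86 (-1.32 to -0.39). TSR1, a GTPase-like protein of late 40S particles, had 67.0 FPKM in treated and 107 FPKM in untreated tetO-GLN4, and 124 and 116 FPKM in treated and untreated wild type, at -0.67 (-1.12 to -0.23). In each of these 3 the treated tetO-GLN4 value lies apart from the untreated one and is the lowest of the 4. TSR2, the chaperone of Rps26, had 132 FPKM in treated and 194 FPKM in untreated tetO-GLN4, at -0.55 (-0.97 to -0.14), with overlapping intervals, and its locus overlaps YLR434C. TSR3 (83.9 FPKM in treated and 105 FPKM in untreated tetO-GLN4), an enzyme that modifies 18S rRNA, was at -0.33. The 90S factors ENP2 (96.1 and 120.2 FPKM in treated and untreated tetO-GLN4) and ENP1 (98.3 and 120.2 FPKM) were at -0.32 and -0.29, and ESF2 (75.2 and 83.6 FPKM), the activator of the helicase Dbp8, was at -0.15. These last 4 have ratio intervals that include 0.

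The rule set the 40S against the 60S factors. The 26 40S factors had a median log2 ratio of -0.32 and 5 fell (19.2%), while the 8 60S factors had a median of -0.59 and 3 fell (37.5%), beside 16.1% of all genes, which the 40S share lies near; the difference of the medians, 40S minus 60S, was 0.27. With the NOP, RRP and NOC genes placed by their known role, the medians were -0.32 for 34 40S genes, of which 7 fell, and -0.56 for 22 60S genes, of which 7 fell, and the difference was 0.25. The ranges overlap almost whole, -1.14 to 0.39 in the 40S group and -0.93 to 0.09 in the 60S group, the median SD of a single ratio was 0.22, and genes are not replicates, so no test of this difference was made. The groups also differed in level: the median untreated FPKM in tetO-GLN4 was 101 for the 40S and 247 for the 60S factors, and the ratio went with level as given above; the part of level in the difference was not tested. In the wild type the medians were 0.03 and 0.06. The groups by known role contain the 26 and 8 genes of the name groups, so their difference is no separate result. Other genes of the pathway, described below, had tetO-GLN4 medians of -0.37 for 41 40S genes and -0.48 for 54 60S genes.

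The 4 snoRNP core proteins had the lowest median of the role classes, -0.84, and 3 fell. NOP56 (YLR197W), a box C/D core protein, had 408 FPKM in treated and 770.3 FPKM in untreated tetO-GLN4, and 810.4 and 822 FPKM in treated and untreated wild type, a log2 ratio of -0.92 (-1.40 to -0.43). Its partner NOP58 had 331 FPKM in treated and 579 FPKM in untreated tetO-GLN4, at -0.81 (-1.29 to -0.32). NOP10, a small box H/ACA protein and by far the most abundant of the 71 mRNAs, had 4260 FPKM in treated and 7846 FPKM in untreated tetO-GLN4, and 7779 and 8657 FPKM in treated and untreated wild type, at -0.88 (-1.31 to -0.46). NOP1, the box C/D methyltransferase fibrillarin, had 533 FPKM in treated and 775 FPKM in untreated tetO-GLN4, at -0.54 (-1.02 to -0.06), with overlapping intervals. The loci of NOP56 and NOP58 overlap YLR198C and YOR309C in the listing. These 4 are among the most abundant factors, at 579 FPKM or more untreated, where 40.2% or more of all genes fell.

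NOP7 (YGR103W, chrVII:695417-697234), which encodes the scaffold of the Nop7-Erb1-Ytm1 complex of the 60S precursor, had the lowest ratio of all 71. It had 174 FPKM (134 to 213) in treated and 436 FPKM (333 to 539) in untreated tetO-GLN4, and 466 and 452 FPKM in treated and untreated wild type, a log2 ratio of -1.33 (-1.80 to -0.86). NOP14 (YDL148C, chrIV:188154-190586), a 90S factor, had 57.0 FPKM in treated and 112 FPKM in untreated tetO-GLN4, and 138 and 127 FPKM in treated and untreated wild type, at -0.98 (-1.42 to -0.53). Its binding partner NOC4 had 92.5 FPKM in treated and 87.9 FPKM in untreated tetO-GLN4, at 0.07 (-0.36 to 0.51). NOP16 (YER002W, chrV:156803-157498), a 60S precursor factor, had 194 FPKM in treated and 381 FPKM in untreated tetO-GLN4, and 473 and 459 FPKM in treated and untreated wild type, at -0.97 (-1.40 to -0.54). NOP7, NOP14 and NOP16 thus fell, with the treated tetO-GLN4 level below the other 3 conditions, whereas NOC4 was level. NOP6, a small subunit factor, RRP5, which serves both subunits, and the 60S genes RRP1 and RRP8 also fell, at -0.75, -0.78, -0.64 and -0.62. The remaining NOP and NOC genes (NOC2, NOC3, NOP2, NOP4, NOP8, NOP9, NOP12, NOP13, NOP15 and NOP53) had ratios of -0.64 to 0.02, none with separate intervals, as had RRP7, RRP9, RRP12, RRP14, RRP15, RRP17 and RRP36 with -0.61 to 0.10.

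The 7 exosome genes lay on both sides of 0, with a median of -0.10. RRP6, the nuclease of the nuclear exosome, had 56.9 FPKM in treated and 104 FPKM in untreated tetO-GLN4, and 95.4 and 95 FPKM in treated and untreated wild type, at -0.87 (-1.31 to -0.44). RRP45, a ring subunit, had 84.4 FPKM in treated and 139 FPKM in untreated tetO-GLN4, at -0.71 (-1.13 to -0.30). Both fell. RRP43 (YCR035C, chrIII:191834-193018), also of the ring, had 161 FPKM (127 to 196) in treated and 107 FPKM (85.5 to 129.5) in untreated tetO-GLN4, and 126 and 125 FPKM in treated and untreated wild type, at 0.59 (0.16 to 1.01), the highest ratio of the 71. Its FPKM intervals overlap narrowly, so it was not called, although the interval of its ratio lies above 0 and the z test called it higher. RRP42 of the ring and RRP4 of the cap had 176 and 145 FPKM in treated against 138 and 123 FPKM in untreated tetO-GLN4, at 0.35 (-0.06 to 0.77) and 0.24 (-0.19 to 0.66). RRP46 and RRP40 were at -0.48 and -0.10. Outside the exosome, RRP3, a DEAD-box protein of 18S rRNA maturation, had 159 FPKM in treated and 124 FPKM in untreated tetO-GLN4, at 0.36 (-0.09 to 0.80).

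**Figure D5:**
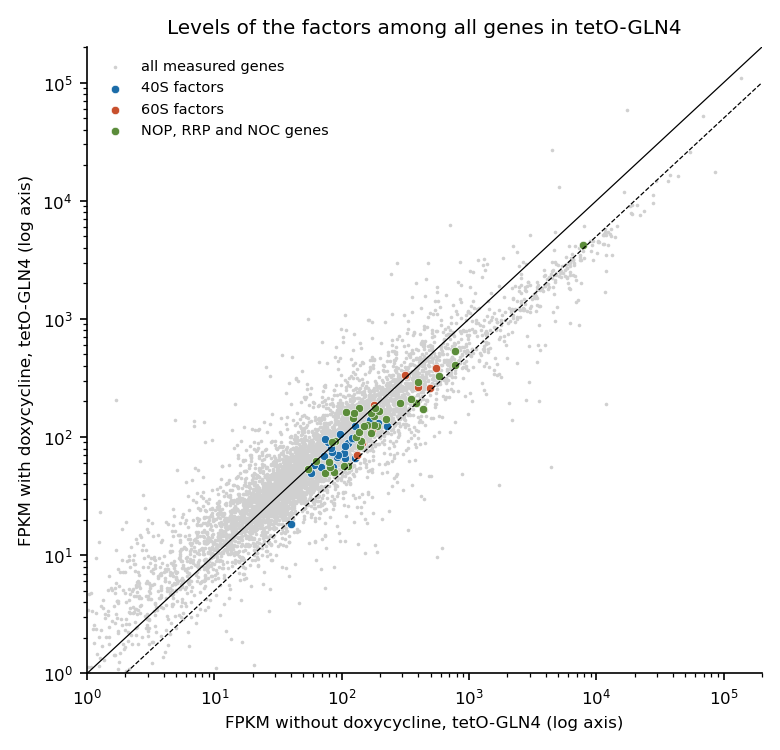
FPKM with doxycycline is plotted against FPKM without it for all genes of tetO-GLN4 with at least 1 FPKM in both conditions (grey) and for the 71 factors (colours), on log axes; the solid line marks equal levels and the dashed line a 2-fold lower level on the deposited scale. The factors lie mostly between the lines, with NOP7 and UTP20 past the dashed one and NOP10 at 4260 FPKM with doxycycline far to the upper right; the FPKM-weighted scale would shift every point up by 0.67 on the log2 scale.

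The effect of doxycycline was also compared between strains, as the log2 ratio in tetO-GLN4 minus that in the wild type. The 95% interval of this difference lay below 0 for 29 of 71 factors and above 0 for 0, against 17.3% of all 6538 genes below and 15.5% above, and the factors' median difference was -0.49. By group, 7 of the 26 40S factors and 6 of the 8 60S factors were among them. A z test of the same difference, adjusted by Benjamini-Hochberg over all genes, called 15 factors lower (21.1%), against 12.5% of all genes. Both strain ratios come from separately normalized tables.

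Other genes of the pathway that the names do not cover, such as the UtpB genes PWP2 and DIP2, were counted from a list of 105. Their median log2 ratio in tetO-GLN4 was -0.42, next to the -0.43 of the 71 factors; 31 fell (29.5%) and 6 rose, beside 16.1% lower and 15.0% higher among all genes. The 41 40S genes had a median of -0.37 with 9 lower and 2 higher, the 54 60S genes -0.48 with 17 lower and 3 higher, the 4 snoRNP genes -1.02 with 4 lower, and the 6 exosome genes -0.09 with 1 lower and 1 higher. The 138 ribosomal protein genes had a median of -1.07, and 124 fell and 0 rose. In the wild type 0 of the 105 and 0 of the 138 were called. On the FPKM-weighted scale 0.67 is added to each of these medians.

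A few factors lie within 5000 bases of each other, with other genes between them. RRP15 and NOC4 on chromosome XVI converge with 689 bases and 1 gene between them and had log2 ratios of -0.55 and 0.07. RRP3 and RRP4 on chromosome VIII, with 4541 bases and 3 genes between them, had 0.36 and 0.24. RRP8 and RRP1 on chromosome IV, with 4218 bases and 3 genes between them, had -0.62 and -0.64. On chromosome XV, NOP8 and RRP40 had 0.02 and -0.10. The nearby RRP6, UTP23 and TSR3, also on chromosome XV, had -0.87, -0.55 and -0.33. Overlapping listed loci touch 9 factors (NOP4, NOP13, NOP56, NOP58, RRP9, RRP14, RRP15, RRP17 and TSR2), whose fragments may be shared with the neighbour because the strand setting of the counting is not stated. Without these 9, 18 of 62 factors fell and the median was -0.42.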

How the data were processed

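RNA from 3 cultures of each of 4 conditions (tetO-GLN4 and wild-type BY4742, each with and without doxycycline) was sequenced from stranded mRNA libraries. The submitters' processing notes name TopHat 1.4.0, Cufflinks and Cuffdiff and the builds sacCer3 and R64; the versions of the last programs and the strand setting are not given in the sources used here. The deposited FPKM come from Cuffdiff as run by the authors, which pooled the 3 cultures of a condition into 1 FPKM per gene with a 95% confidence interval and normalized each strain in its own table. The deposited differential expression columns hold the authors' own fold changes, p-values and q-values and were not used.

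Low FPKM values did not fall on whole steps (12.0% in tetO-GLN4 and 8.5% in the wild type lay within 5% of one), so no reads were recovered and depth is unknown; the median SD of an FPKM was 10.6% to 10.9% of its value. Genes with status OK and FPKM above 0 in both conditions were measured. Bounds were taken as 2 SD, log2 ratios were computed without a pseudocount, and calls were made where the 2 intervals lay apart; strain differences were called where their 95% interval left out 0. The calls were tested on simulated data. The simulated noise was taken from the deposited intervals, so the test cannot show whether these match the spread between cultures. The files hold 1 value per condition, so limma could not be fitted and no p-value measures the spread between cultures.

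The members and lists were chosen with earlier results of these data known. The genes given in full were the 60S group, the ENP, ESF and TSR genes, the 4 highest and 4 lowest UTP genes and the 4 highest and 4 lowest NOP, RRP and NOC genes by ratio; other members were described by role after their values were seen. Promoters came from the RefSeq R64 genome, in which 62 of 71 factors have the listed start and end. Alternatives were pseudocounts of 1 and 0.1 FPKM, a minimum of 1 FPKM, centring on the median or the FPKM-weighted mean, a z test with Benjamini-Hochberg adjustment, a 2-fold threshold, subunits by role and leaving out overlapping loci; the interval of the ratio, and overlapping loci for all members, were added after seeing the data. Python 3.11.15, pandas 2.3.3, numpy 2.4.6, scipy 1.17.1 and matplotlib 3.10.9 were used.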

Additional observations from a re-analysis of the deposited data

Results flagged for a closer look

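The doxycycline effect differed between the strains for 29 of the 71 factors by the interval of the difference, all 29 lower in tetO-GLN4 than in the wild type. The 15 that also passed the z test adjusted over all genes had these differences of log2 ratios, tetO-GLN4 minus wild type. For the 60S factors BUD20, NSA1 and RPF2 they were -0.99, -0.95 and -0.79. For NOP7 and NOP16, 60S genes by known role only, they were -1.37 and -1.01. For the 40S factors UTP20, UTP14, ESF1, TSR4 and TSR1 they were -1.13, -1.05, -0.93, -0.92 and -0.77. For NOP14 and NOP6, 40S genes by known role only, they were -1.10 and -0.86. For the box C/D core proteins NOP56 and NOP58 they were -0.90 and -0.88, and for the exosome nuclease RRP6 -0.88. With each strain centred on its FPKM-weighted mean, 1 factor was lower and 14 were higher. That centring brings the median log2 ratio of all genes in tetO-GLN4 to 0.68. The share of all genes called on this scale was not computed, so these counts do not set the factors apart. The alpha-specific genes also differ between the strains in their response to doxycycline, and their part in these values was not tested.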

How the results depend on the processing

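Of 55 recomputed values, 46 stayed near the main value, 4 moved away from it without a change of direction and 5 reversed. The moved counts went both up and down, as given below. Near means a count within 1.5 times the main one, or a median within 1 median SD of a single ratio. The minimum of 1 FPKM left all 71 factors in, so the values under it could not move. Centring on the FPKM-weighted mean reversed 5 results: the median log2 ratio in tetO-GLN4 became 0.25 for all factors, 0.35 for the 40S and 0.083 for the 60S factors, 14 factors were called (0 lower, 14 higher), and 15 differed between strains (1 lower, 14 higher). This follows from the 0.67 that the centring adds to every log2 ratio in tetO-GLN4. Among all genes 3006 were then called higher and 280 lower in tetO-GLN4. The share of all genes that differed between strains on that scale was not computed. The count of 20 called factors moved to 33 with the z test (32 lower and RRP43 higher), to 2 with a 2-fold threshold and to 36 with the interval of the ratio (35 lower and RRP43 higher), and the 29 factors that differed between strains to 15 with the z test. Among all genes the z test called 2554 in tetO-GLN4 and 7 in the wild type. In tetO-GLN4 it called 45.1% of the factors lower, against 20.1% of all genes. The interval of the ratio called 1511 of all genes lower (23.1%) and 1429 higher in tetO-GLN4. The 40S median exceeded the 60S median by 0.25 with subunits by role and by 0.27 without overlapping loci; the centrings and the FPKM minimum cannot change this difference. Pseudocounts, the FPKM minimum and centring on the median of all genes moved none of these counts by over 1.5 times.

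No paired analysis was possible because the analysed tables hold 1 pooled FPKM per condition and no column per culture; for the same reason leaving out each culture was not run. Precision rests on the deposited intervals alone. In the wild type the interval of the ratio left out 0 for 24 of 6560 genes (0.366%), and the factors' ratios had an SD of 0.05 across genes beside a median SD of 0.20 for a single ratio.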

Other observations

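Between the untreated conditions of the strains, whose tables were normalized separately, the factors' log2 FPKM in tetO-GLN4 minus that in the wild type had a median of -0.21, with 65 of 71 below 0, while all 6562 genes had a median of 0.15 and 30.2% below 0. The lowest were RRP36 (-0.64), NSA2 (-0.59) and UTP11 (-0.57), named after their values were seen. This difference and the doxycycline ratio share the untreated tetO-GLN4 cultures.

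Since the depleted enzyme charges the glutamine tRNA, the share of glutamine codons was counted in each coding sequence. The factors had a median of 3.90% (1.78% to 8.0%), against 3.69% for 5847 genes. Across the 71 factors it had a Spearman rho of -0.01 with the log2 ratio in tetO-GLN4, and across all genes -0.04; genes are not independent replicates, and no test was made.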
